A study of Mus musculus with 6 samples.

Results

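This report concerns 10 proteoglycan genes, the small leucine-rich proteoglycans Dcn, Lum, Bgn, Fmod, Ogn, Aspn and Prelp, the large matrix proteoglycan versican (Vcan), and the cell surface proteoglycans syndecan 4 (Sdc4) and glypican 1 (Gpc1). They were chosen by symbol, through the Ensembl IDs, from the 37224 rows of an expression table of mouse embryonic fibroblasts (MEF), connective tissue cells cultured from embryos. All 10 were found, each as 1 row. The table held 4 RNA-seq libraries, 1 per group. The first came from untreated wild-type cells and the second from wild-type cells exposed for 24 h to sodium arsenite (an inorganic form of arsenic) at low dose. The third came from untreated cells labelled Dot1L-/-, that is, null for the methyltransferase of lysine 79 of histone H3, and the fourth from Dot1L-/- cells with the same exposure. All were on a C57BL/6 background. The labels call the cells primary, describe both kinds as diploid and nontumorigenic, and do not say how many embryos or clones they came from. The treatment protocol lists 5 and 10 µM arsenic beside 0 µM, and the labels do not say which of these was sequenced.

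Proteoglycans are core proteins that carry long sulfated sugar chains, the glycosaminoglycans. Small leucine-rich proteoglycans are secreted, bind collagen through repeats rich in leucine, govern how thick fibrils grow and hold growth factors such as TGF-beta in the matrix. Versican binds hyaluronan and forms a loose, hydrated matrix around migrating and dividing fibroblasts. Syndecan 4, which spans the membrane, and glypican 1, which is held by a lipid anchor, carry heparan sulfate and act as co-receptors for matrix proteins and growth factors.

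The values were RPKM, reads scaled by gene length and by library depth, so levels can be set beside each other between genes. Depth, recovered from the steps in which RPKM values move, was 62972880 reads in untreated wild type and 64699847 in the untreated null, against 10833103 and 11879632 with arsenite. That is 5.81 and 5.45 times more reads in the untreated libraries. Dot1l stood at 30.4 RPKM in untreated wild type and 9.59 in the untreated null, and at 5.71 and 1.24 with arsenite, so the libraries labelled Dot1L-/- were lower for this gene but not at 0. Log2 folds were computed on RPKM + 1, which makes the folds of low genes smaller, over the 12588 genes with at least 1 RPKM in any library, and 2-fold was the threshold. With 1 library per group no test was possible. Each fold is therefore a difference between libraries, printed with a 95% interval for counting error only. The median log2 fold of all genes was −0.56 for arsenite in wild type, −0.53 for arsenite in the null, −0.17 for null against wild type untreated and −0.28 with arsenite. Of the genes past 2-fold, 26.4%, 29.0%, 30.5% and 34.1% were higher in the same order. After centring on those medians the shares were 52.8%, 49.6%, 43.9% and 57.1%, and after scaling to the 75th percentile 43.9%, 46.5%, 39.2% and 48.6%. With the trend on gene length removed they were 50.7%, 48.8%, 45.9% and 58.2%. Long genes were lower with arsenite: the median log2 fold in wild type was 0.33 between 1000 and 2000 bases and −1.54 from 12000 bases upward.

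Fibroblast markers were present in part. Of 11 such genes, 9 passed the filter, among them Vim at 702 to 1310 RPKM and Col1a1 at 63.9 to 335 RPKM, while Thy1 was listed at 0 in all 4 libraries. The summed level of this list was 2630 RPKM in untreated wild type, 5010.4 with arsenite, 2282 in the untreated null and 12131 with arsenite. S100a4 alone gave 688, 4191, 949 and 10957 of these. Skeletal muscle, endothelial and epithelial lists summed to at most 3.07 RPKM in any library, with Myod1, Emcn and Epcam listed at 0 in all 4. The adipocyte list summed to 3.99 to 23.1 RPKM, the pericyte and smooth muscle list to 0.470 to 17.5 and the macrophage and leukocyte list to 4.81 to 23.8. Of the 7 macrophage and leukocyte genes 3 passed the filter, Cd14 at 1.16 to 21.1 RPKM, Cd68 at 2.02 to 5.56 and Lyz2 at 0.0125 to 2.99, whereas Ptprc was at most 0.00819. The neural and glial list summed to 34.4 to 122 RPKM. Of its 5 genes 3 passed the filter, Tubb3 at 16.2 to 61.9 RPKM, Nes at 12.7 to 43.8 and Sox2 at 1.06 to 15.8. Gfap was at most 0.109 RPKM and Sox10 at most 0.00585.

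Most of the small leucine-rich family lies in 3 clusters on the chromosomes (positions in GRCm38). On chromosome 10, Dcn (ENSMUSG00000019929, 97479500 to 97518163) is followed by Lum (ENSMUSG00000036446, 97565501 to 97572703), Kera and Epyc. On chromosome 13, Aspn (ENSMUSG00000021388, 49544443 to 49567565) and Ogn (ENSMUSG00000021390, 49608015 to 49624501) flank Omd, with Ecm2 beside them. Chromosome 1 holds Optc, Prelp (ENSMUSG00000041577, 133910304 to 133930102) and Fmod (ENSMUSG00000041559, 134037254 to 134048280). Bgn (ENSMUSG00000031375, X, 73483601 to 73495936), Vcan (ENSMUSG00000021614, 13, 89655309 to 89743027), Sdc4 (ENSMUSG00000017009, 2, 164424247 to 164443188) and Gpc1 (ENSMUSG00000034220, 1, 92831645 to 92860211) lie apart from them. The spans of Ogn and Aspn lie within that of Cenpp, and Gpc1 overlaps the end of Ankmy1. How reads in such overlaps were assigned is not given in the sources used here. Recovered gene length was 14462 bases for Vcan and 2075 to 3615 bases for the other 9.

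Promoters are shown for 4 of the 7 genes with an entry in the RefSeq promoter table (GRCm38.p6), chosen because each of these pairs shared a 2-fold difference described below. Bgn and Sdc4 were higher with arsenite in the null. Ogn and Vcan were higher in the untreated null, as was Prelp, which has an entry but is not shown. Each sequence shown is the 250 bases before the start site of that entry, 5′ to 3′ on the gene's strand. Capitals mark matches on either strand to a TATA box, spelled TATAAA, to the sequence CCAAT, or to an SP1 site, which was searched as GGGCGG. The 4 stretches lie at chrX:73483351-73483600 (plus strand) for Bgn, chr2:164443189-164443438 (minus strand) for Sdc4, chr13:49607765-49608014 (plus strand) for Ogn and chr13:89742513-89742762 (minus strand) for Vcan. That of Vcan lies inside the annotated span of the gene (89655309 to 89743027), so the start site used is not its outermost one. The same holds for the stretch of Prelp that was searched.
Bgn: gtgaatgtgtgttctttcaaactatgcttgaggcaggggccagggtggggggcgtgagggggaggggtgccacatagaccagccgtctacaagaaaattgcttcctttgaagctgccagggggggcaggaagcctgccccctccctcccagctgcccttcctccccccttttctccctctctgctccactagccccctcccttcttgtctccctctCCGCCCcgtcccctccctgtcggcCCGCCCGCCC
Sdc4: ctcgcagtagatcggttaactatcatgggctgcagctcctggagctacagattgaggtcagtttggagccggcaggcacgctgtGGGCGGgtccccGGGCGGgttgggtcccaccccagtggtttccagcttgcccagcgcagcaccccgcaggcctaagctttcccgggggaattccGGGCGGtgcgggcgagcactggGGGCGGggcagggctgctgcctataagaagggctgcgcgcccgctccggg
Ogn: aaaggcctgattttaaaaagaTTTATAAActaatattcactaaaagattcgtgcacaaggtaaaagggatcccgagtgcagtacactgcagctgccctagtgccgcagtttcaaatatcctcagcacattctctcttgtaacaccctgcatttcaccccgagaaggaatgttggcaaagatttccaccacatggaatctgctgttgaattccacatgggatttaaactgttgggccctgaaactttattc
Vcan: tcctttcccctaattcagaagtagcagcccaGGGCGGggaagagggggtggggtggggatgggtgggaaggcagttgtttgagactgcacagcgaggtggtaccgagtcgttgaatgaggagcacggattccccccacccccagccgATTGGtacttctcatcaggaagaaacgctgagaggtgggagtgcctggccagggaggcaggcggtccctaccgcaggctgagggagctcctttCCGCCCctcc
Sdc4 held 4 SP1 matches, Bgn 3 and Vcan 2, whereas Ogn held none. Fmod, Aspn and Prelp, which are not shown, held none either. The share of G and C bases was 68% in Sdc4, 64.4% in Bgn, 62.4% in Vcan and 42% in Ogn, beside a median of 52% over all promoters. Of 27025 promoters of this length, 32.9% held at least 1. Ogn held 2 overlapping TATAAA matches, the nearer 227 bases before the start, against 13.0% of promoters with at least 1. Vcan held 1 CCAAT match, found in 34.5% of promoters. Of the genes not shown, Prelp and Aspn also held 1 CCAAT match each, and Aspn held 2 TATAAA matches. Neither the AP-1 site TGANTCA (6.87% of promoters) nor the antioxidant response element core TGACNNNGC (10.1%) matched in any of the 7 genes. The SMAD element CAGAC (42.1%) matched in Fmod and Prelp. The metal response element spelled TGCACNC (10.2%) matched in Ogn and that spelled TGCGCNC (12.6%) in Sdc4. Both strands were searched and matches could overlap. A match is a description of these letters, not a binding site.

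Biglycan dominated the set in every library, and lumican and asporin were nearly undetected. Bgn was at 593 RPKM in untreated wild type, 478 with arsenite, 528 in the untreated null and 1070.4 with arsenite, which put it at or above the 98.6th percentile of tested genes in all 4. It made up 73.7%, 83.0%, 74.8% and 84.3% of the summed RPKM of the 10 genes. In the wild-type control the next levels were those of Gpc1 at 77.1, Sdc4 at 61.7 and Dcn at 60.7 RPKM, and then those of Vcan at 6.32, Ogn at 3.01, Fmod at 1.71 and Prelp at 1.03. Dcn and Sdc4 lay close together there. In the null control Sdc4 was next at 55.8 RPKM, followed by Vcan at 40.0, Ogn at 35.0, Gpc1 at 24.3 and Dcn at 19.4. Without Bgn, the summed level of the other 6 small leucine-rich genes was 66.8 RPKM in untreated wild type, 5.90 with arsenite, 58.1 in the untreated null and 29.2 with arsenite.

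**Figure D1:**
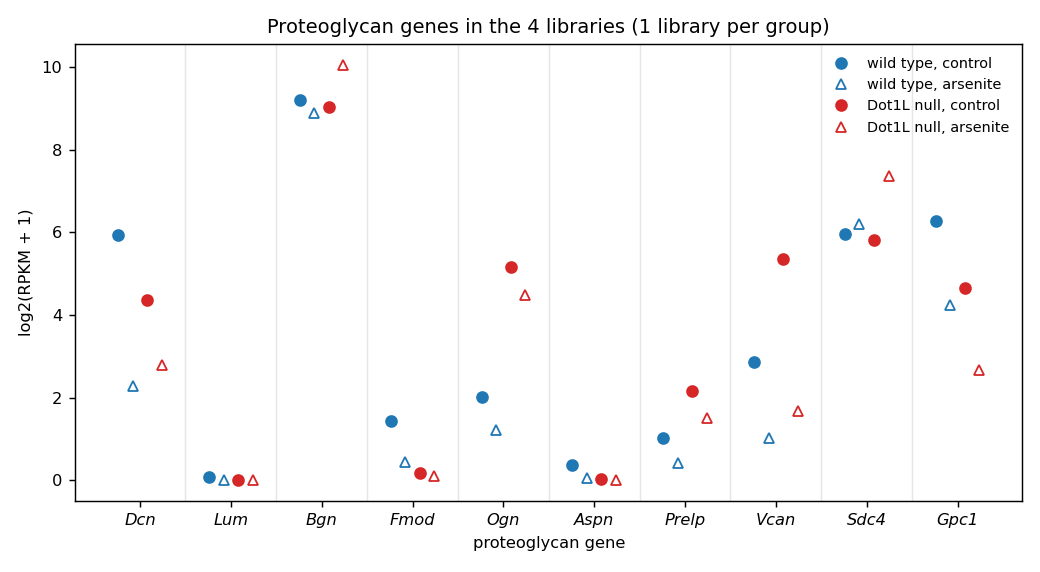
Level of each gene as log2(RPKM + 1), with wild type in blue, Dot1L null in red, controls as filled circles and arsenite as open triangles, 1 library per point. Bgn is highest in every library, Lum and Aspn lie near 0, and Ogn is separated by genotype.

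**Figure D2:**
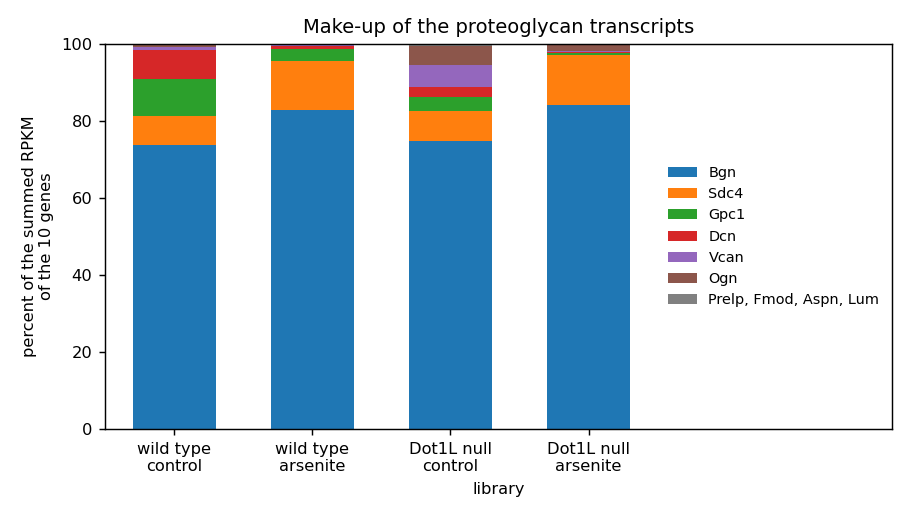
Share of each gene in the summed RPKM of the 10 genes, in percent, 1 bar per library. Bgn takes 73.7% to 84.3%, Dcn is largest in untreated wild type at 7.55%, and Vcan and Ogn are largest in the untreated null at 5.67% and 4.96%.

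Of the 10 genes, 8 passed the filter. Lum had 6 reads in untreated wild type, 1 in the untreated null and 0 in both arsenite libraries, where 3 reads, the limit that a count of 0 allows, would be 0.133 and 0.122 RPKM. Aspn had 43 reads (0.291 RPKM), 1, 3 and 0 in the order wild-type control, wild-type arsenite, null control and null arsenite. Between the controls Aspn was 14.7-fold lower in the null (4.71 to 74.2). With arsenite no fold is given for Lum, nor for Aspn in the null. Fmod passed the filter through the wild-type control alone, so its lower level elsewhere is partly set by the filter.

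Arsenite in wild-type cells went with lower decorin, versican and glypican 1. These were 3 of the 8 tested genes, near the 35.7% of all genes that were at least 2-fold lower. The count was 6 with a pseudocount of 0.1, which added Fmod, Ogn and Prelp (43.4% of all genes), and 2 with the length trend removed, without Vcan (15.4%). None was 2-fold higher, against 12.8%. The median of the 8 was −0.89, beside −0.56 for all genes. Arsenite in null cells went with lower levels of the same 3 genes, again near the share of all genes, 37.1%. Bgn and Sdc4 were higher there, 2 of 8 against 15.2%, and the median was −0.67 beside −0.53. The arsenite comparisons in wild type and in null share no library. In bulk RNA, fewer cells of a type and less RNA per cell cannot be told apart.

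Decorin binds collagen fibrils and TGF-beta and is a typical product of fibroblasts. Dcn was at 60.7 RPKM in untreated wild type (7968 reads), 3.85 with arsenite (87 reads), 19.4 in the untreated null and 5.94 with arsenite. The wild-type control stood above the other 3 libraries. With arsenite it was 15.8-fold lower in wild type (12.8 to 19.7) and 3.27-fold lower in the null (2.77 to 3.89). Its log2 fold of −3.67 in wild type was in the lowest 0.342% of tested genes and was −3.62 with the length trend removed, the trend value at its length being −0.05. In the null the log2 fold of −1.56 became −0.995, short of 2-fold, after scaling to the 75th percentile. Untreated, Dcn was 3.12-fold lower in the null (2.99 to 3.27). With arsenite it was 1.54-fold higher in the null (1.17 to 2.03), a log2 fold of 0.52 that did not reach the threshold. Lum, Kera and Epyc, its neighbours, stayed at or under 0.0459 RPKM in every library.

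Biglycan, the closest relative of decorin, also binds collagen and can signal through Toll-like receptors once released. With arsenite Bgn was 1.24-fold lower in wild type (1.22 to 1.26) and 2.03-fold higher in the null (2.00 to 2.05). The log2 fold of −0.31 in wild type lay above the median of all genes. It was 0.25 once that median was subtracted and 0.35 with the length trend removed, so its sign depended on scaling. Null and wild-type controls differed by 1.12-fold (1.11 to 1.13, lower in the null), a log2 fold of −0.16 that was 0.06 with the length trend removed. With arsenite the null was 2.24-fold higher (2.20 to 2.28). Set against Bgn within each library, which needs no scaling between libraries, Dcn was 10.2% of Bgn in untreated wild type, 0.807% with arsenite, 3.68% in the untreated null and 0.555% with arsenite. Decorin was thus a smaller part of the pair in both arsenite libraries and in the untreated null.

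Fibromodulin and PRELP are leucine-rich proteoglycans of tendon, cartilage and other dense tissue. Fmod was at 1.71 RPKM in untreated wild type (355 reads), 0.363 with arsenite (13 reads), 0.117 in the untreated null (25 reads) and 0.0764 with arsenite (3 reads). It was 14.6-fold lower in the untreated null (9.72 to 22.9) and 4.70-fold lower with arsenite in wild type (2.71 to 8.91). On the RPKM + 1 scale these were −1.28, past the threshold, and −0.99, just short of it. Prelp was at 1.03, 0.332, 3.48 and 1.84 RPKM in the same order of libraries. It was 3.38-fold higher in the untreated null (2.92 to 3.93) and 5.54-fold higher in the null with arsenite (3.06 to 10.9), where wild type had 13 reads. Fmod and Prelp, 107152 bases apart, thus differed in opposite directions between the untreated genotypes. With a pseudocount of 5 neither passed 2-fold.

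Tendon markers were lower in the null, as Fmod was. Scx, a transcription factor of tendon cells, was at 45.7, 61.6, 4.79 and 9.71 RPKM in wild-type control, wild-type arsenite, null control and null arsenite. Of the 3 tendon markers 2 passed the filter, the whole list summed to 50.3, 64.4, 5.21 and 10.1 RPKM, and Tnmd was at most 0.0117 RPKM. Their part in the result was not tested.

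Osteoglycin, also called mimecan, is a small proteoglycan first isolated from bone that takes part in collagen fibril assembly. Ogn was at 3.01 RPKM in untreated wild type, 1.31 with arsenite, 35.0 in the untreated null and 21.3 with arsenite. Both null libraries lay above both wild-type libraries. It was 11.6-fold higher in the null untreated (10.6 to 12.8) and 16.3-fold higher with arsenite (11.7 to 23.5). The log2 folds of 3.17 and 3.27 were above those of 99.5% and 99.3% of tested genes. Arsenite went with a level 2.30-fold lower in wild type (1.64 to 3.32) and 1.64-fold lower in the null (1.51 to 1.78), −0.80 and −0.69 on the RPKM + 1 scale and short of the threshold. Set beside its neighbours in the untreated null, the level of Ogn was 35.0 RPKM, that of Omd 0.894, that of Aspn 0.0198 and that of Ecm2 0.249. Cenpp, whose span contains Ogn, was at 8.03 RPKM in untreated wild type and 1.63 in the untreated null, the other way round.

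Cartilage and bone markers gave mixed values beside Ogn. Sox9, a transcription factor of cartilage, was at 2.80 RPKM in untreated wild type, 1.61 with arsenite, 25.7 in the untreated null and 14.1 with arsenite, so that it too was higher in both null libraries. Col2a1, the main collagen of cartilage, ran the other way, at 19.1, 9.31, 4.95 and 2.34 RPKM, lower in both null libraries. Runx2, a transcription factor of bone, was at 15.5 RPKM in untreated wild type and 2.86 in the untreated null. Of the 9 markers 3 passed the filter, the whole list summed to 38.0, 13.4, 34.2 and 18.8 RPKM, Acan was at most 0.0343 RPKM and Ibsp was listed at 0. Their part in the result was not tested.

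Versican had the largest arsenite fold of the 8 genes in null cells. Vcan was at 6.32 RPKM in untreated wild type (5752 reads), 1.04 with arsenite (163 reads), 40.0 in the untreated null (37460 reads) and 2.17 with arsenite (373 reads). The null control stood above the other libraries. Arsenite-treated wild-type cells had 6.07-fold less Vcan (5.19 to 7.14) and null cells 18.4-fold less (16.7 to 20.5). The log2 folds were −1.84 and −3.69, and long genes as a group were lower with arsenite. With the length trend removed they were −0.26, no longer past 2-fold, and −2.14. The trend value at the length of Vcan was −1.58 in wild type and −1.55 in the null. In wild type the call was also lost with a pseudocount of 5 (−0.91). Untreated, Vcan was 6.34-fold higher in the null (6.16 to 6.52). With arsenite it was 2.09-fold higher (1.73 to 2.52), 0.64 on the RPKM + 1 scale.

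**Figure D3:**
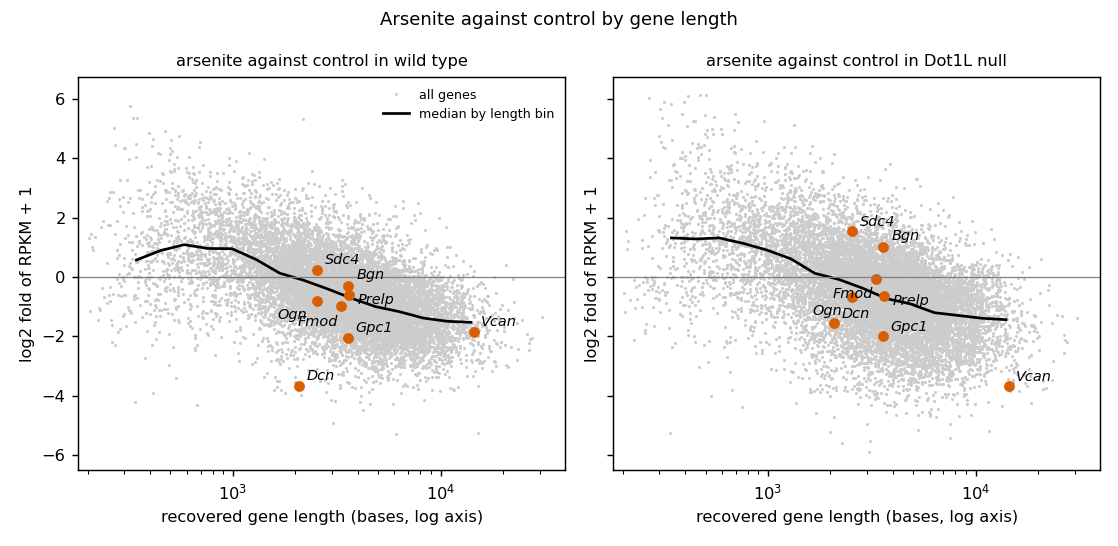
Log2 fold of RPKM + 1 with arsenite against recovered gene length (log axis) for all genes of 200 bases or more (grey), with the median by length bin (black) and the 8 proteoglycan genes (orange). In wild type Vcan lies near the median of genes of its length while Dcn lies far below it, and in the null Vcan, Dcn and Gpc1 lie below and Sdc4 and Bgn above.

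Syndecan 4 is a focal adhesion co-receptor of fibronectin. Sdc4 was at 61.7 RPKM in untreated wild type, 73.2 with arsenite, 55.8 in the untreated null and 163 with arsenite. The null arsenite library stood above the other 3, which lay within 55.8 to 73.2. It was 1.19-fold higher with arsenite in wild type (1.13 to 1.25) and 2.93-fold higher in the null (2.83 to 3.03). The controls differed by 1.11-fold (1.07 to 1.14, lower in the null), a log2 fold of −0.14 whose sign changed with scaling (0.03 once the median of all genes was subtracted). With arsenite the null was 2.23-fold higher (2.12 to 2.35).

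Glypican 1 binds fibroblast growth factors through its heparan sulfate chains. Gpc1 was at 77.1 RPKM in untreated wild type, 17.8 with arsenite, 24.3 in the untreated null and 5.32 with arsenite. It was 4.34-fold lower with arsenite in wild type (4.02 to 4.69) and 4.56-fold lower in the null (4.00 to 5.23). It was 3.18-fold lower in the null untreated (3.08 to 3.27) and 3.34-fold lower with arsenite (2.87 to 3.90). The arsenite folds lay close to each other and so did the genotype folds, with a difference of the arsenite effects of 0.06 on the log2 scale. With the length trend removed the log2 folds with arsenite were −1.38 in wild type and −1.29 in the null, both still past the threshold.

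**Figure D4:**
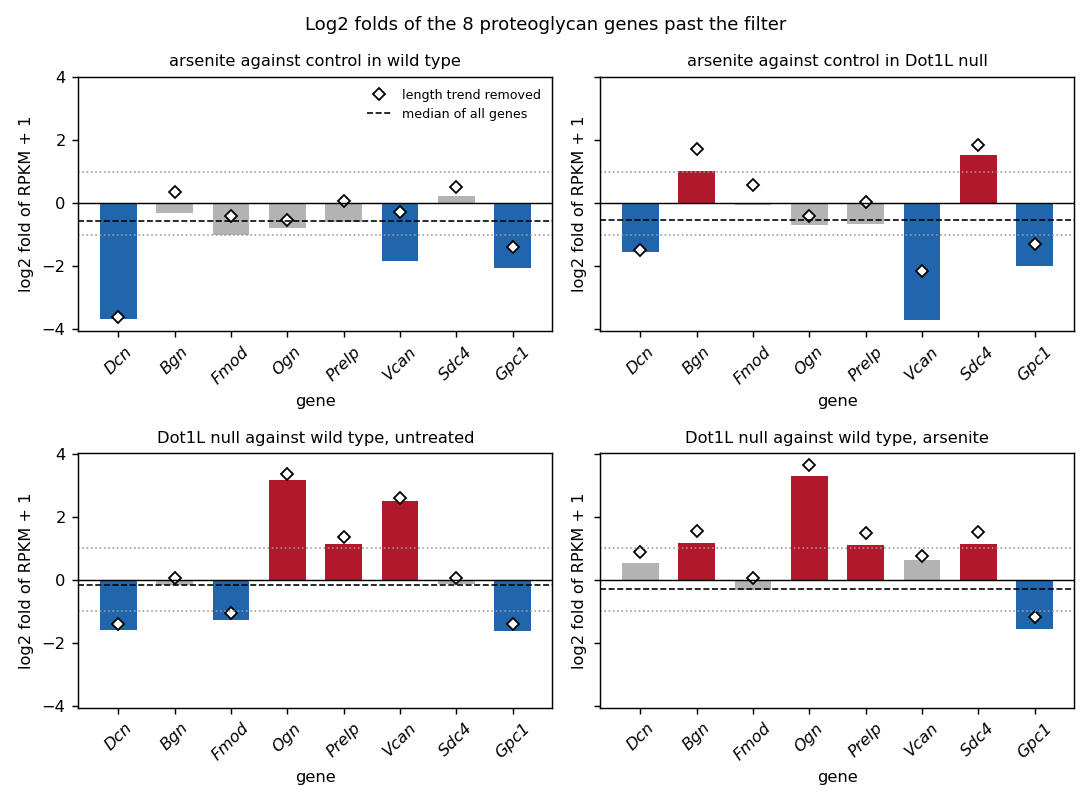
Log2 folds of RPKM + 1 for the 8 tested genes in 4 comparisons, with bars in red or blue where past 2-fold (dotted lines) and grey otherwise, the median of all genes dashed and values without the length trend as diamonds. Dcn, Vcan and Gpc1 are lower with arsenite in both genotypes, Ogn is higher in the null in both treatments, and Vcan in wild type moves from −1.84 to −0.26 without the length trend.

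Between untreated genotypes, Ogn, Prelp and Vcan were 2-fold higher in the null, 3 of 8 against 6.45% of all genes. Dcn, Fmod and Gpc1 were 2-fold lower, 3 of 8 against 14.7%. Of these, Fmod passed the filter through the wild-type control alone, so its call is partly set by the filter. With a filter of 5 RPKM the lower genes were Dcn and Gpc1, and the higher ones Ogn and Vcan. With arsenite, Bgn, Ogn, Prelp and Sdc4 were higher in the null, 4 of 8 against 8.75%, and Gpc1 was lower, 1 of 8 against 16.9%. With a pseudocount of 0.1 Fmod was lower too (28.6% of all genes). The medians of the 8 were −0.15 untreated and 0.86 with arsenite, beside −0.17 and −0.28 for all genes. The 8 genes were chosen with earlier results of these data known. Their counts and medians beside those of all genes, here and elsewhere in this report, therefore describe these genes and do not show an excess. Each genotype comparison shares its libraries with the arsenite comparisons, the untreated one through the controls and the other through the arsenite libraries, so they are not separate evidence of each other.

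Subtracting the log2 fold of arsenite in wild type from that in the null gives a difference of effects for each gene. It was at least 1 for Dcn (2.11), Bgn (1.33) and Sdc4 (1.29), 3 of 8 against 12.1% of all genes, and at most −1 for Vcan (−1.85), 1 of 8 against 12.8%. Fmod followed at 0.94, and Ogn (0.11), Gpc1 (0.06) and Prelp (−0.05) were near 0. It uses all 4 libraries and had no replicate to test it against.

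The other genes of these pathways are given by list, counted on the RPKM + 1 scale and read against all genes, of which 35.7% were at least 2-fold lower and 12.8% higher with arsenite in wild type, and 37.1% and 15.2% in the null. With the length trend removed these shares were 15.4% and 15.8% in wild type and 21.0% and 20.0% in the null. The lists were chosen with earlier results of these data known and were not tested against each other or against all genes.

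Other small leucine-rich proteoglycans were sparse. Of 11 listed genes 5 passed the filter. In wild type none was past 2-fold with arsenite on the RPKM + 1 scale, a count that depends on the setting. With a pseudocount of 0.1, 1 was higher and 2 were lower (15.9% and 43.4% of all genes), and with the length trend removed 1 was lower. By reads Optc was 11.6-fold higher there (4.04 to 37.8), from 0.0370 to 0.430 RPKM, while Podnl1 went from 4.76 to 2.13 RPKM and Omd from 1.20 to 0.237. In the null 2 were higher, Optc at 0.156 RPKM in the control and 1.93 with arsenite and Podnl1 at 2.06 and 5.15. Optc passed the filter through the null arsenite library alone, so its higher level there is partly set by the filter. Tsku, which encodes tsukushi, had the highest level of them in every library, at 17.5, 10.7, 8.19 and 9.07 RPKM. Of a further list of 9 proteoglycan genes, among them Acan, Ncan, Bcan, Srgn, Spock1 and Spock2, none passed the filter. Of the hyalectans, Vcan passed it.

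Of 8 other cell surface and basement membrane heparan sulfate proteoglycans, 7 were lower with arsenite in wild type (35.7% of all genes), and in the null 4 were lower and 1 higher (37.1% and 15.2%). With the length trend removed 2 were lower in wild type (15.4% of all genes), and in the null 1 was lower and 1 higher (21.0% and 20.0%). Perlecan (Hspg2), a basement membrane proteoglycan, was at 102 RPKM in untreated wild type, 9.28 with arsenite, 87.2 in the untreated null and 15.96 with arsenite. Agrin (Agrn) was at 18.8, 2.45, 12.3 and 0.882 RPKM. Syndecan 3 (Sdc3) was at 82.0, 23.6, 8.84 and 6.14 RPKM, 9.27-fold lower in the untreated null (8.95 to 9.61). The gene that was higher in the null was syndecan 2 (Sdc2), at 58.2, 41.0, 26.9 and 57.3 RPKM, a log2 fold of 1.06 there and 1.69 with the length trend removed. Sdc4 was also higher with arsenite in the null, by 2.93-fold.

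Of 14 genes for making and editing heparan sulfate chains, 13 were lower with arsenite in wild type (median −1.87, 35.7% of all genes) and 10 in the null (−1.33, 37.1%), with none higher on this scale. With the length trend removed 4 were lower in wild type (15.4% of all genes), and in the null 2 were lower (21.0%) and Ext1 was higher. Glce, which epimerises glucuronic acid in the chain, was at 25.0 RPKM in untreated wild type, 2.08 with arsenite, 46.7 in the untreated null and 1.00 with arsenite. Ndst1, which starts chain sulfation, was at 28.8, 2.74, 27.9 and 1.33 RPKM. Sulf1, a sulfatase that trims sulfate from finished chains outside the cell, was at 32.2 RPKM in untreated wild type and 0.124 in the untreated null, 260-fold lower (190 to 366). With arsenite it was at 4.14 RPKM in wild type and had 0 reads in the null, which is at least 79.7-fold lower when that count of 0 is set to 3 reads.

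Of 15 chondroitin and dermatan sulfate genes, 8 were lower with arsenite in wild type (median −1.09), against 35.7% of all genes. In the null 5 were lower and 2 higher (median −0.35), near the 37.1% and 15.2% of all genes. Length-adjusted, 5 were lower and 1 higher in wild type (15.4% and 15.8% of all genes), and 3 lower and 2 higher in the null (21.0% and 20.0%). Dse, the epimerase that makes dermatan sulfate, was at 12.5 RPKM in untreated wild type, 1.44 with arsenite, 13.4 in the untreated null and 1.41 with arsenite. Chst12, a chondroitin 4-sulfotransferase, was at 5.78, 12.2, 3.16 and 23.5 RPKM, 2.10-fold higher in wild type (1.84 to 2.40) and 7.44-fold higher in the null (6.61 to 8.39). Chst7, a chondroitin 6-sulfotransferase, was at 4.39 RPKM in untreated wild type and 0.0771 in the untreated null. Of 12 linker and precursor genes, 2 were lower in wild type, against 35.7% of all genes. In the null 2 were lower and 2 higher, against 37.1% and 15.2% of all genes. Length-adjusted, 1 was lower and 1 higher in wild type (15.4% and 15.8% of all genes). In the null 1 was then lower and 5 higher, against 21.0% and 20.0% of all genes. B3gat3, which adds the last sugar of the linker on which all such chains are built, was at 43.7, 56.2, 22.7 and 60.6 RPKM. Papss1, which makes the sulfate donor, was at 28.9, 5.19, 13.9 and 4.37 RPKM, and Ugdh, which makes glucuronic acid precursor, at 20.3, 10.1, 23.0 and 4.84.

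Versican's partners were measured too. Of 7 tested hyaluronan genes 3 were lower with arsenite in each genotype, near the 35.7% and 37.1% of all genes. Length-adjusted, 2 were lower in wild type (15.4%), and in the null 1 was lower and 1 higher (21.0% and 20.0%). Has2, a hyaluronan synthase, was at 3.99 RPKM in untreated wild type, 0.370 with arsenite, 1.05 in the untreated null and 1.33 with arsenite. Cd44, the hyaluronan receptor, was at 55.8, 45.2, 16.7 and 11.2 RPKM. Hmmr, another hyaluronan-binding protein, was at 17.7, 10.9, 5.67 and 1.70 RPKM. Hapln1, which lies next to Vcan and links versican to hyaluronan, was at most 0.0167 RPKM.

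Of 7 proteases and inhibitors acting on core proteins, 6 were lower with arsenite in wild type (35.7% of all genes) and 3 in the null (37.1%). Length-adjusted, 3 were lower in wild type (15.4%), and in the null 2 were lower (21.0%) and 1 higher (20.0%). Adamts1, a protease that cuts versican, was at 9.60 RPKM in untreated wild type, 0.261 with arsenite, 82.0 in the untreated null and 1.33 with arsenite. Timp3, which inhibits such proteases, was at 99.2, 14.6, 457 and 22.5 RPKM. As with Vcan, the null control stood above the other libraries for both. Adamts4, another such protease, was at 8.23, 0.499, 0.778 and 0.403 RPKM.

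Collagens that decorin and biglycan bind were lower with arsenite in 8 of 9 cases in wild type (35.7% of all genes), and in the null 4 were lower and 1 higher, near the 37.1% and 15.2% of all genes. Length-adjusted, 6 were lower and 1 higher in wild type (15.4% and 15.8%), and 2 lower and 3 higher in the null (21.0% and 20.0%). Col12a1 was at 96.6 RPKM in untreated wild type, 1.55 with arsenite, 10.99 in the untreated null and 0.702 with arsenite, and Col3a1 at 135, 12.1, 12.9 and 10.3. Col6a2 was at 14.8, 2.29, 10.4 and 25.6 RPKM, with its highest level in the null arsenite library, as Bgn. Among 13 growth factors and receptors that these proteoglycans bind, 11 were lower in wild type (35.7% of all genes), and in the null 8 were lower and 1 higher (37.1% and 15.2%). Length-adjusted, 6 were lower in wild type (15.4%), and in the null 5 were lower and 2 higher (21.0% and 20.0%). Lrp1, an endocytic receptor of decorin, was at 95.4, 9.68, 122 and 8.52 RPKM. Tgfbr1, a TGF-beta receptor, was at 8.50, 0.890, 15.4 and 0.554 RPKM, and the matricellular gene Ccn4 at 46.2, 4.87, 21.9 and 0.961. Of 10 partners of syndecan 4 and glypican 1, 6 were lower in each genotype (35.7% and 37.1% of all genes), or 2 and 4 with the length trend removed (15.4% and 21.0%), Vegfa among them at 114, 14.8, 88.2 and 8.10 RPKM. Fgf7, a growth factor, was at 1.59 RPKM in untreated wild type and 45.1 in the untreated null. Tgm2, a matrix cross-linking enzyme, was at 1.39 and 37.7 RPKM there and at 1.84 and 53.7 with arsenite.

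**Figure D5:**
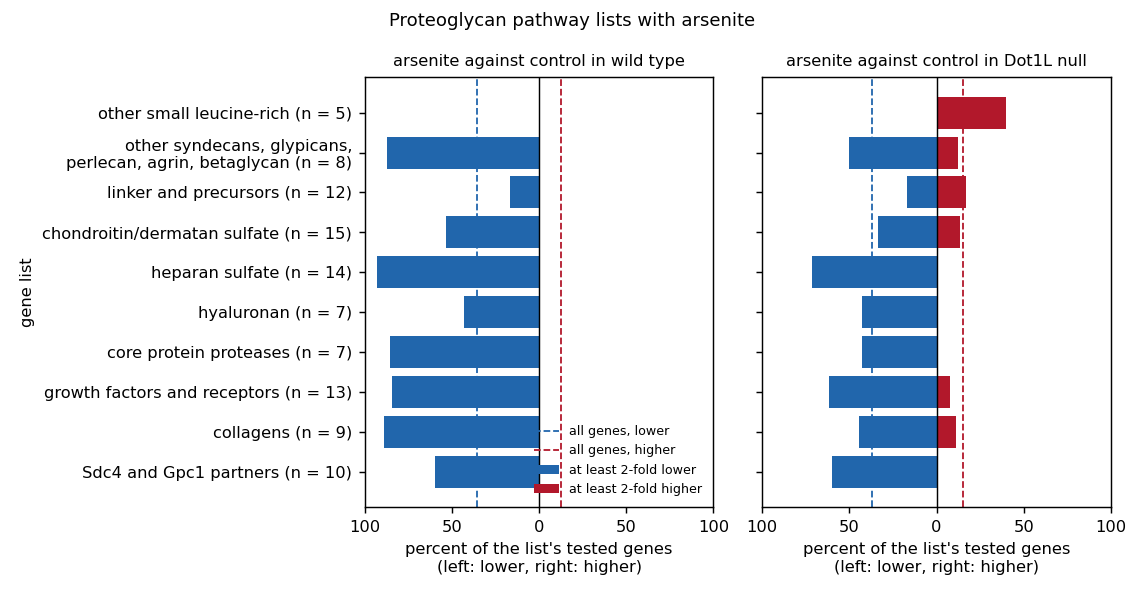
Percent of the tested genes of each proteoglycan pathway list that were at least 2-fold lower (blue, left) or higher (red, right) with arsenite, with dashed lines for the share of all genes. On the RPKM + 1 scale no list has a gene 2-fold higher in wild type, though 3 lists have 1 each with the length trend removed, and heparan sulfate genes are lower in 13 of 14 cases, or 4 without that trend.

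For the 6 members that reached 10 RPKM, the most similar genes were sought among 6638 others by the distance between centred log2(RPKM + 1) profiles over the 4 libraries, a measure that rests on 4 points. Dcn was nearest to Palld (distance 0.36), Sh3pxd2b (0.44) and Col5a1 (0.49). Palld was at 22.6 RPKM in untreated wild type, 1.08 with arsenite, 6.52 in the untreated null and 1.10 with arsenite. Bgn was nearest to P2rx4, Acaa1a and Phlda1 (0.16 to 0.21), and Sdc4 to Gatd1, Tnfrsf23 and Shisa4 (0.11 to 0.18). Gpc1 was nearest to Dnmt1, Ezr and Ptgs2 (0.10 to 0.11). Ogn was nearest to Ccng1, Sned1 and Il1rn (0.34 to 0.44), of which Ccng1 was at 12.6, 8.75, 153 and 73.3 RPKM. Vcan was nearest to Slc19a2, Fam110c and Impact (0.42 to 0.57), and Slc19a2 was at 4.05, 0.866, 26.8 and 1.91 RPKM.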

How the data were processed

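The authors deposited RPKM values per Ensembl gene, 1 column for each of 4 RNA-seq libraries. The submitters' processing notes name TopHat, HTSeq, Bowtie, deepTools and mm10, without roles. Annotation and strand setting: not given in the sources used here. Per the labels' protocols, Ribo-zero rRNA depletion preceded strand-specific library construction, but the label for the molecule is polyA RNA. The 2 H3K27ac libraries were not analysed here. Symbols were found for 35449 of 37224 IDs.

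Depth and gene length were recovered from RPKM steps that correspond to 1 read, with a relative tolerance of 1e-12 for whole numbers. Of 523 small RNA genes, 359 had a recovered length equal to the annotated span and 401 equal to it or to a whole fraction of it, so some lengths may be underestimates. Recovered reads served for intervals and length, not for a count model.

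Log2 folds used a pseudocount of 1 over genes with at least 1 RPKM in any library. The 95% intervals of read ratios (Clopper-Pearson, conditional on the summed reads) cover counting error only, since reads without molecular identifiers are not independent molecules. The length trend was a lowess curve (fraction 0.3, genes of 200 bases or more). Alternatives were pseudocounts of 0.1 and 5, a filter of 5 RPKM, no filter, median centring, 75th percentile scaling and removal of the length trend. Python 3.11.15, scipy 1.17.1 and statsmodels 0.14.6 were used, and the computation was tested on simulated data.

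The members and lists were chosen with earlier results of these data known. Genes named are the 10 members, up to 3 genes per list with the largest log2 fold in any comparison, the 3 nearest profiles of members reaching 10 RPKM, chromosomal neighbours and Dot1l. Podnl1, Sdc2, Ext1 and the individual cell type markers were named after their values were seen.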

Additional observations from a re-analysis of the deposited data

Results flagged for a closer look

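Dcn, Bgn and Sdc4 differed in opposite directions between groups while past 2-fold in at least 1 of them. The share of all genes that did so was not counted, so this is not read as a trait of these genes. With 1 library per group none of these differences was tested. Dcn was lower in the null untreated (log2 fold −1.59) and higher with arsenite (0.52), a difference of 2.11, and both signs held under all 7 alternatives. Bgn was lower with arsenite in wild type (−0.31) and higher in the null (1.02). Between genotypes it was lower in the null untreated (−0.16) and higher with arsenite (1.16). Both contrasts use the same 4 libraries and give the same difference of 1.33. The wild-type arsenite value of Bgn was above 0 under 3 of the 7 alternatives (up to 0.35) and the untreated genotype value under 2 (up to 0.06). Sdc4 was lower in the null untreated (−0.14) and higher with arsenite (1.15), a difference of 1.29, and the untreated value was above 0 under 3 alternatives (up to 0.06).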

How the results depend on the processing

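No paired analysis was possible because each group held 1 library, and for the same reason no replicate could be left out. With a pseudocount of 0.1, the number of the 8 genes at least 2-fold lower with arsenite in wild type was 6 in place of 3, with Fmod, Ogn and Prelp added, and the number lower in the null against wild type with arsenite was 2 in place of 1, with Fmod added. The other counts of these genes stayed within 1.5 times under the 7 alternatives, and no fold past the threshold changed sign. A pseudocount of 0.1 added 5 calls. A pseudocount of 5 ended 4, Fmod (−0.39) and Prelp (0.49) untreated, Prelp with arsenite (0.36) and Vcan with arsenite in wild type (−0.91). Scaling to the 75th percentile and removing the length trend ended 1 each, for Dcn in the null and Vcan in wild type. With a filter of 5 RPKM Fmod and Prelp were no longer tested, so their calls were not made there. Low depth limits Fmod, Lum and Aspn in the arsenite libraries, where each had at most 13 reads. Prelp also had 13 reads with arsenite in wild type, which limits its call between genotypes with arsenite.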

Other observations

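Within each library, which needs no scaling between libraries, the levels of the 2 cell surface members changed places. Gpc1 was 1.25 times Sdc4 in the wild-type control, 0.243 times with arsenite, 0.435 times in the null control and 0.0325 times with arsenite. Ogn was 0.0495 times Dcn in the wild-type control, 0.340 times with arsenite, 1.80 times in the null control and 3.59 times with arsenite. These are ratios of RPKM from 1 library each and were not tested.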
